A study of Mus musculus with 10 samples.

Results

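RUNX1 binding was examined around Cdkn1a, Cdkn2b and Myc, 3 genes of the growth arrest that TGFβ brings about in epithelial cells. The data are chromatin immunoprecipitation and sequencing (ChIP-seq) peak lists from mouse large biliary epithelial cells (MLE), a bile duct lining cell type named so by the labels and without expression data here to test the name. TGFβ libraries came from near-confluent cells given 10 ng/mL TGFβ overnight and vehicle libraries from cells given vehicle. Each treatment had 3 libraries precipitated with a polyclonal RUNX1 antibody, replicates 1 and 2 in batch 1 and replicate 3 in batch 2, and none of them carries a further genotype or agent in the labels. The 4 input libraries of the series were not analysed here. The labels do not say that libraries of 1 treatment came from separate cultures, so p-values measure the spread between these libraries, which may be technical.

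Members were all rows of the 6 lists whose summit fell in fixed windows with flanks around each gene, in GRCm39: 29.26 to 29.37 Mb of chromosome 17 for Cdkn1a, 89.14 to 89.28 Mb of chromosome 4 for Cdkn2b and its neighbour Cdkn2a, and 61.80 to 61.92 Mb of chromosome 15 for Myc. A row is 1 called peak. The windows held 114 of the 147041 rows, and rows that overlapped by at least 1 bp were merged into 40 sites, of 64286 merged regions in all. There were 16 sites in the Cdkn1a window, 15 in the Cdkn2b window and 9 in the Myc window. They are numbered from the lower coordinate in each window. Values for 3 libraries of a treatment are given in the order of replicates 1, 2 and 3, and values for a pair in the order of replicates 1 and 2. A pair is a TGFβ and a vehicle library with the same number, and within batch 1 this matching rests on the titles alone. The gene table in hand is of GRCm38, so it served only for names and gene order, and no site is placed relative to a start site, exon or intron.

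TGFβ stops the cell cycle of many epithelial cells in G1. SMAD complexes raise transcription of Cdkn1a and Cdkn2b, whose proteins (p21 and p15) block cyclin-dependent kinases, and lower that of Myc, a transcription factor that drives growth and represses both inhibitor genes. RUNX proteins bind DNA as partners of CBFβ, act with SMADs at some TGFβ target genes, and have been tied to Cdkn1a regulation in several tissues. Cdkn2a encodes a further kinase inhibitor and, from another reading frame, an activator of the p53 pathway. In the RefSeq gene order, Cdkn1a lies between the protein-coding genes Srsf3 and Rab44, Cdkn2a is the protein-coding neighbour of Cdkn2b, and the long noncoding RNA gene Pvt1 follows Myc.

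Promoter sequences of the inhibitor genes were read from RefSeq (GRCm38.p6) to show what RUNX letters they hold. The sequence under the called summits is not shown, and whether a called site covers these promoters was not tested. The 250 bases before the second annotated start of Cdkn1a (chr17:29093519-29093768, plus strand) and before the start of Cdkn2b (chr4:89311033-89311282, minus strand) read 5′ to 3′, with the RUNX core TGTGG in capitals. These are GRCm38 positions and cannot be set beside the peak positions, which are GRCm39.
Cdkn1a, second start: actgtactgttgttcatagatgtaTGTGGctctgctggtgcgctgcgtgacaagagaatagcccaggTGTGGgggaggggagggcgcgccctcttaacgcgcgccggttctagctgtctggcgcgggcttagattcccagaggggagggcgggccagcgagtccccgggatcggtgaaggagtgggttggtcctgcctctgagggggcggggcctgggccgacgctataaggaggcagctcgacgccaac
Cdkn2b: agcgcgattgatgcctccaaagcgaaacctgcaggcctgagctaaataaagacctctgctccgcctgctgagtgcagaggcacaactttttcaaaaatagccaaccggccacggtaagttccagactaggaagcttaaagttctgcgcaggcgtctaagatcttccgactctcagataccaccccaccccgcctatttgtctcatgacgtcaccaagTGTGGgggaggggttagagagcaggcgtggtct

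The core sat 226 to 222 and 183 to 179 bases before the Cdkn1a start, and 33 to 29 bases before the Cdkn2b start. The core was in neither the window of the first Cdkn1a start nor that of the first Cdkn2a start, and 3 times in that of the second Cdkn2a start. Both windows share the run gTGTGGgggagggg, of 14 bases, which was found on either strand in 12 of the 32851 RefSeq start windows of this length. That run was taken from both printed windows, which are among the 12, so its low count is not a test of anything. The full RUNX letters TGTGGT and TGCGGT, searched on both strands, were in neither printed window, nor in the window of the first Cdkn1a start. Over all start windows, TGTGGT was present in 14.0%, TGCGGT in 5.10% and the core TGTGG, which lies inside TGTGGT, in 49.3%. Of the other letters searched, the SMAD half-site type CAGACA (17.1% of windows) had 1 match, 136 to 131 bases before the second Cdkn1a start on the minus strand, while AP-1 TGANTCA (6.75%) and TEAD GGAATG (12.6%) had none in the Cdkn1a and Cdkn2b windows. The promoter table in hand has entries for Cdkn1a, Cdkn2b and Cdkn2a, and Myc was not analysed here.

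The 3 windows were denser in called peaks than the lists as a whole in 17 of 18 combinations of library and window. That mean is taken over the whole chromosome span, and windows around other genes were not measured. Higher density is therefore not shown to be particular to these genes. Relative to the mean density of its own list over the chromosomes, the Cdkn1a window held 7.35, 7.05 and 5.26 times as many peaks under TGFβ and 11.7, 9.15 and 4.56 times as many under vehicle. In the Cdkn2b window the values were 6.93, 6.93 and 1.03 under TGFβ and 3.95, 2.70 and 0 under vehicle. The Myc window stood at 4.05, 5.39 and 3.62 under TGFβ and at 10.8, 8.39 and 2.79 under vehicle. Rows are counted here, and several batch 1 vehicle rows at Myc match 1 long TGFβ row, as described below. Cdkn2b sites 9, 14 and 15 gave 2 rows each in TGFβ replicate 1. The ratio divides by the length of the list, which need not remove all of its effect. TGFβ was above the same-numbered vehicle library in 3 of 3 pairs at Cdkn2b, in pair 3 with 1 peak against 0. At Cdkn1a and at Myc TGFβ was above vehicle in 1 of 3 pairs. None of these differences passed 0.05 in the two-sided exact permutation test (p = 0.3 at Cdkn2b, 0.5 at Cdkn1a and 0.4 at Myc, all 0.5 after Benjamini-Hochberg adjustment over the 3).

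**Figure D1:**
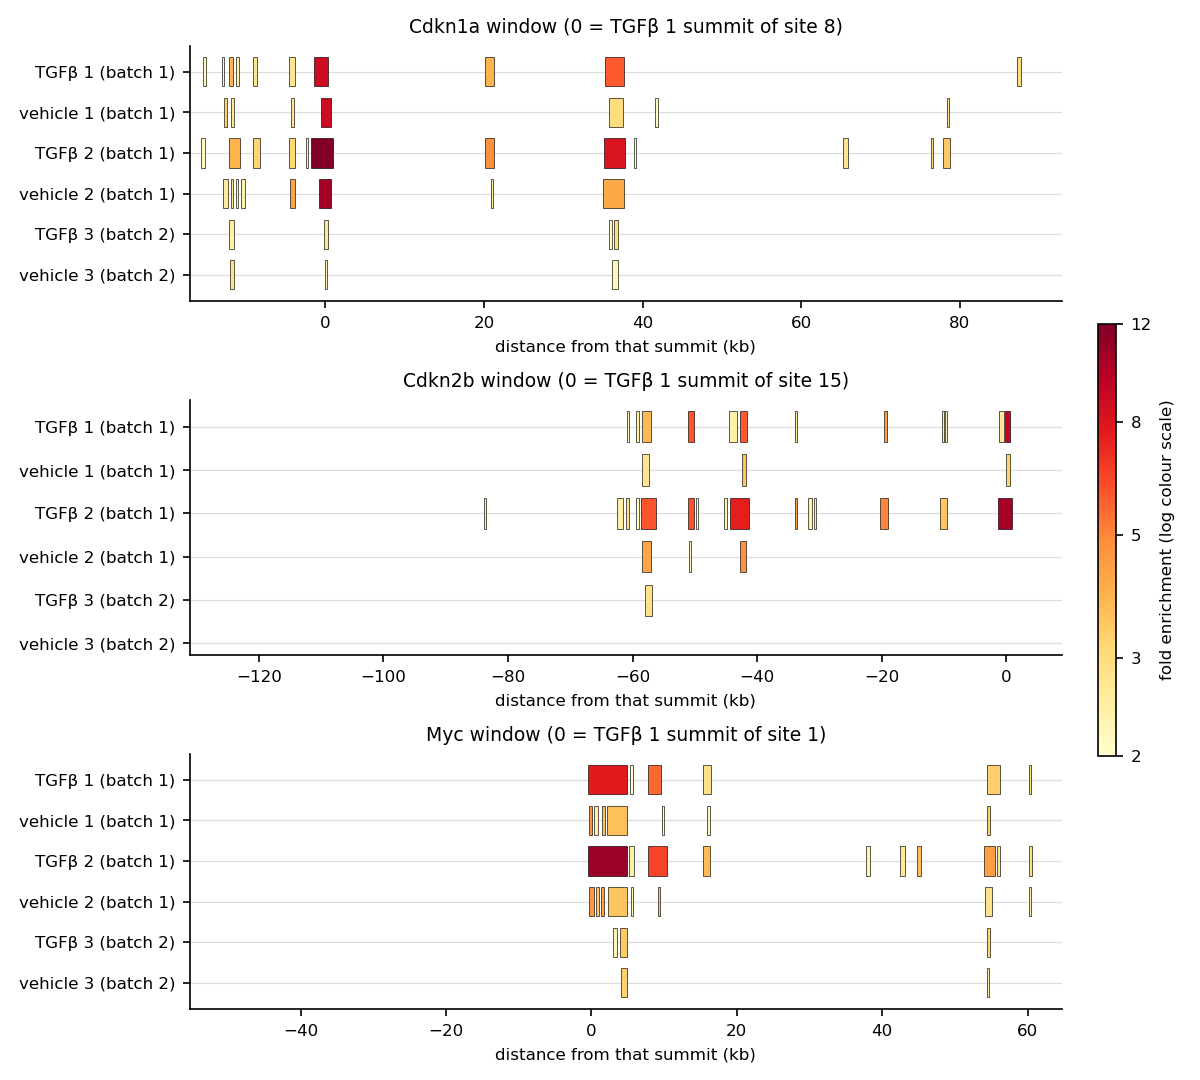
Called RUNX1 peaks in the 3 gene windows, each drawn to scale as a bar along the distance in kb from the summit named in the panel title, with 1 row per library and colour for the deposited fold enrichment on a log scale. Darker bars recur at the same places in both batch 1 TGFβ libraries, and the batch 2 libraries show from 0 to 4 bars a window. At Cdkn1a site 8 the batch 1 vehicle bars are dark too (folds of 8.74 and 10.5).

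Called peaks in the Cdkn1a window numbered 10, 12 and 4 under TGFβ and 7, 8 and 3 under vehicle. Both batch 1 TGFβ libraries lay above both batch 1 vehicle libraries, and the batch 2 libraries were lowest. Within pairs the ratio was 1.43, 1.5 and 1.33, where the whole lists differed by 2.28, 1.95 and 1.16 times. The batch 1 ratios were thus below those of the whole lists. Means were 8.67 ± 4.16 and 6.0 ± 2.65 (SD, n = 3), a difference of 2.67 peaks (two-sided exact permutation p = 0.4). Covered length was 7557 ± 5306 bp under TGFβ and 4424 ± 2817 bp under vehicle (SD, n = 3, exact permutation p = 0.4).

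The Cdkn2b window showed the widest gap in batch 1. The TGFβ libraries had 12, 15 and 1 peaks there, and the vehicle libraries 3, 3 and 0. Within pairs the ratio was 4 and 5 in batch 1, where the whole lists differed by 2.28 and 1.95 times. These numbers count rows, and sites 9, 14 and 15 gave 2 rows each in TGFβ replicate 1. Counted as merged sites, the window held 9, 15 and 1 under TGFβ and 3, 3 and 0 under vehicle. Mean peak numbers were 9.33 ± 7.37 under TGFβ and 2.0 ± 1.73 under vehicle (SD, n = 3, exact permutation p = 0.3), and the groups overlapped through the single peak of TGFβ replicate 3. Covered length was 8641, 15132 and 1128 bp under TGFβ against 2421, 2710 and 0 bp under vehicle (exact permutation p = 0.3).

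At Myc the treatments lay closer in the number of peaks than in covered length. The TGFβ libraries had 6, 10 and 3 peaks, and the vehicle libraries 7, 8 and 2, a difference of means of 0.667 (exact permutation p = 0.9). This difference turned to -1.17 without TGFβ replicate 2 and also without vehicle replicate 3. The peak numbers count rows, and site 1 gave 4 rows in each batch 1 vehicle list but 1 in each batch 1 TGFβ list. Counted as merged sites, the window held 6, 9 and 2 under TGFβ and 4, 5 and 2 under vehicle. Covered length was 10568, 13591 and 1863 bp under TGFβ and 5127, 6069 and 1078 bp under vehicle, or 8674 ± 6089 against 4091 ± 2652 bp (SD, n = 3, exact permutation p = 0.3). It was 2.06, 2.24 and 1.73 times as long under TGFβ in pairs 1, 2 and 3. The whole TGFβ lists held 2.28, 1.95 and 1.16 times as many peaks in these pairs, with longer median rows. Covered length of the whole lists was not measured, so these ratios are not read as particular to Myc.

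**Figure D2:**
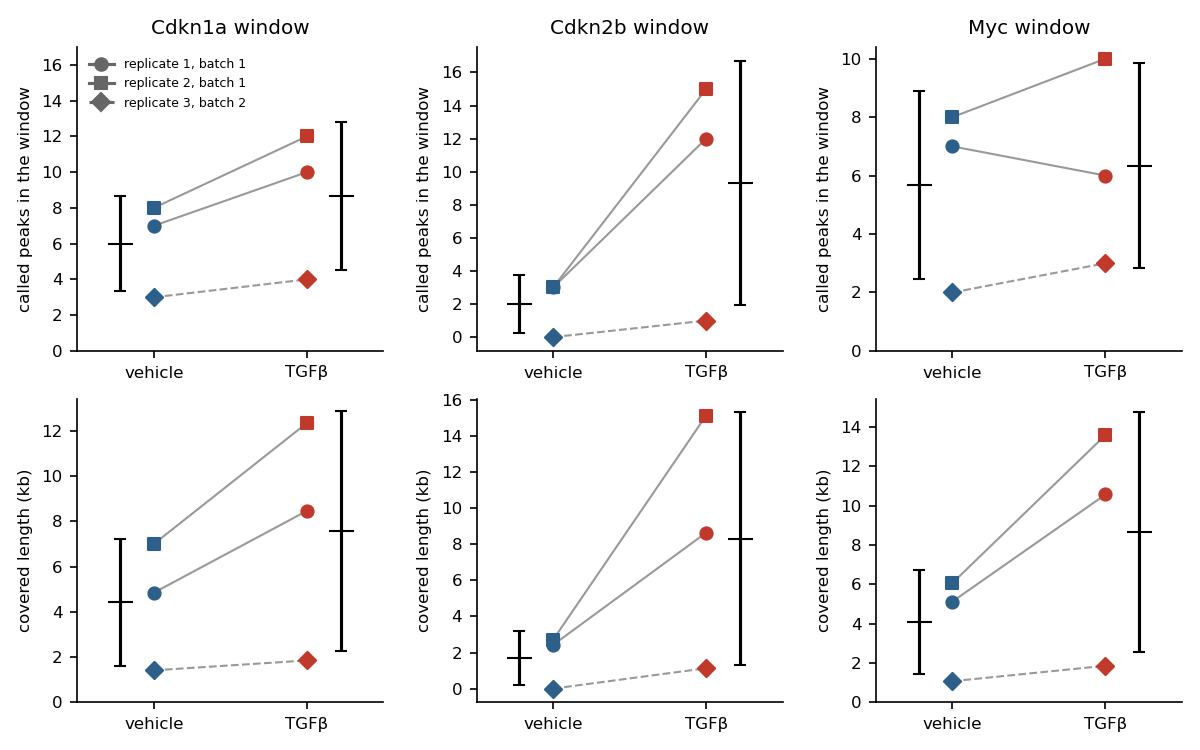
Number of called peaks (top) and covered length in kb (bottom) per window in vehicle (blue) and TGFβ (red) libraries, with lines joining same-numbered libraries and black bars for mean ± SD of 3 libraries. TGFβ points lie above their vehicle partners except for the number of peaks at Myc in replicate 1 (6 against 7). The vehicle number there counts several rows of Myc site 1, which is 1 row under TGFβ.

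With 3 against 3 libraries no p below 0.1 can be reached, and after adjustment over the 6 values tested the exact permutation p-values were 0.48 to 0.9. Permuting within batches gave p = 0.167 (exact), the lowest that design allows, for 5 of the 6 values and 0.833 for the number of peaks at Myc. A direct comparison of windows, added after the values were seen, asked whether the TGFβ difference itself differed between genes. The difference in peaks was 6.67 larger at Cdkn2b than at Myc and 4.67 larger than at Cdkn1a (both exact permutation p = 0.2). Peaks are rows here, and some sites were split into different numbers of rows between libraries. The windows also differ in length, at 140 kb for Cdkn2b, 120 kb for Myc and 110 kb for Cdkn1a. The difference in covered length was 2007 bp larger at Cdkn2b than at Myc (exact permutation p = 0.2) and 3457 bp larger than at Cdkn1a (exact permutation p = 0.1, the lowest possible). After adjustment over the 6 such comparisons each p was 0.2 (exact permutation, Benjamini-Hochberg). Batch 2 gives 1 library per treatment and no test.

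When each list was cut to its best 14733 peaks by −log10 p, the length of the shortest list, the order changed in 2 of the windows. Cdkn1a then had 4, 3 and 3 peaks under TGFβ and 7, 4 and 3 under vehicle, a difference of -1.33. Myc had 2, 3 and 3 under TGFβ and 7, 6 and 2 under vehicle, a difference of -2.33. At Cdkn2b, TGFβ stayed above vehicle, with 5, 5 and 1 peaks against 3, 2 and 0. The lower Myc count in the batch 1 TGFβ lists includes the joining of several vehicle peaks in 1 long TGFβ row, described below.

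Among the 40 sites, 5 were called in all 6 lists, against 6.36% of all merged regions: sites 3, 8 and 10 at Cdkn1a and sites 1 and 8 at Myc. No site of the Cdkn2b window reached all lists. A call in every TGFβ and no vehicle list, found in 0.619% of all regions, occurred at 0 of the 40 sites, and at 7 when TGFβ replicate 3 was left out, where 17.6% of regions have the pattern. Calls in both batch 1 TGFβ lists and neither batch 1 vehicle list were made at 7 sites, 2 of 16 at Cdkn1a, 5 of 15 at Cdkn2b and 0 of 9 at Myc, where 16% of all regions have this pattern. That count became 21 of 40 without TGFβ replicate 1 (38.8% of all regions then have the pattern), 11 of 32 without TGFβ replicate 2 (28.4%) and 11 of 39 without vehicle replicate 2 (23.9%). The opposite patterns, a call in both batch 1 vehicle lists and neither batch 1 TGFβ list (0.204% of regions) or in every vehicle and no TGFβ list (0.0109%), were seen at 0 sites. A single list held 16 sites, against 50% of all regions, and their highest folds ran from 1.92 to 3.63. All 6 sites called in batch 2, which were 3 at Cdkn1a, 1 at Cdkn2b and 2 at Myc, were also called in batch 1.

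Fold enrichment below is the authors' value at the strongest summit of a site in each list, over that list's own local background. The lists were called separately, so folds are set side by side and not tested. The percentile of a site is its rank by −log10 q within a list, and ranks from lists of unequal length show no change. The lowest fold called at the lowest background was 1.93 to 2.08 in the 6 lists, so a site that was not called may lie just under such a value. The 16 sites called in at least 3 lists are given in turn.

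**Figure D3:**
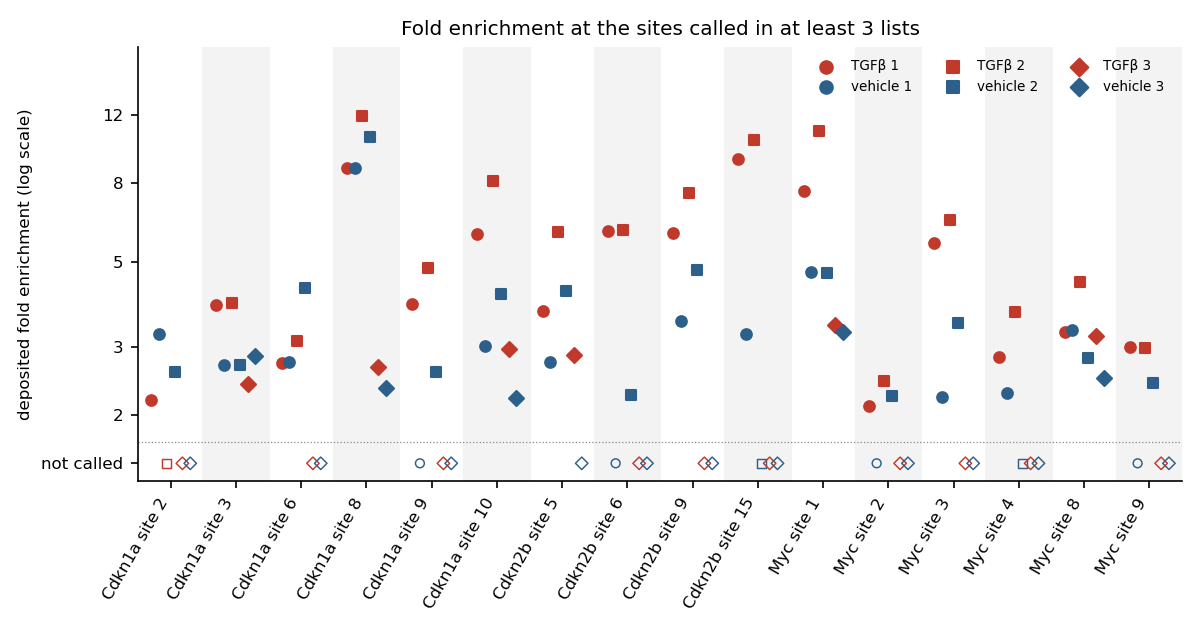
Deposited fold enrichment (log scale) at the 16 sites called in at least 3 lists, TGFβ in red, vehicle in blue, symbols for the replicate and open symbols under the dotted line for lists without a call. At Cdkn1a site 8 the batch 1 libraries of both treatments lie between 8.74 and 11.9, while at Cdkn2b site 15 and Myc site 1 the batch 1 TGFβ points lie above the vehicle points.

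Site 8 of the Cdkn1a window held the highest fold of the 40 sites in any list, in TGFβ replicate 2. In TGFβ replicate 1 Cdkn2b site 15 was higher, and in both batch 2 lists other sites were. Site 8 spans 29275324 to 29278045 of chromosome 17. Its fold was 8.75, 11.9 and 2.66 under TGFβ and 8.74, 10.5 and 2.35 under vehicle. Site 8 was thus at a similar fold in both treatments of a pair and far lower in batch 2. From fold and p-value, 107 and 135 overlapping fragments were recovered at the summit in the batch 1 TGFβ libraries and 101 and 129 in the batch 1 vehicle libraries, where the local background was 10.4 to 11.4. It ranked in the 93.3 and 95.2 percentile of the batch 1 TGFβ lists and in the 97.4 and 98.1 percentile of the batch 1 vehicle lists. Peak width differed more than height, with 1782 and 2722 bp under TGFβ and 1220 and 1538 bp under vehicle in batch 1. Summits of the 4 batch 1 libraries fell within 57 bp of each other, and those of TGFβ and vehicle replicate 3 lay 206 and 230 bp past the TGFβ replicate 1 summit.

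Cdkn1a site 10 spans 29312057 to 29314900, with its TGFβ replicate 1 summit 37.4 kb from that of site 8. Folds were 5.89, 8.10 and 2.97 under TGFβ and 3.02, 4.12 and 2.22 under vehicle. Here the TGFβ value was the higher in all 3 pairs. Recovered fragments at the summit were 79, 101 and 40 under TGFβ and 35, 56 and 31 under vehicle. The row was already broad under vehicle, at 1717 and 2764 bp in batch 1 against 2401 and 2613 bp under TGFβ. Its summits were spread over 776 bp. Those of the batch 1 TGFβ libraries were 1 bp apart, the vehicle replicate 2 summit lay 652 bp before them, and the vehicle replicate 3 summit 620 bp before them.

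Between them, site 9 (29297193 to 29298406) was called in 3 lists. Its fold reached 3.87 and 4.82 in the batch 1 TGFβ libraries, and 2.58 in vehicle replicate 2. The TGFβ rows were 1149 and 1175 bp wide and the vehicle row 344 bp. Site 3 (29264951 to 29266312) was called in all lists at moderate folds of 3.87, 3.91 and 2.41 under TGFβ and 2.70, 2.71 and 2.84 under vehicle, so that vehicle was the higher in batch 2. The strongest summits of pair 2 lay 622 bp apart there. Vehicle replicate 2 had a second row with its summit at 29265973 and a fold of 2.26, beside the TGFβ replicate 2 summit at 29265971. Site 6 (29272517 to 29273333) ran the other way in pair 2: the batch 1 folds under TGFβ were 2.72 and 3.11, and those under vehicle 2.74 and 4.28. At site 2 (29264060 to 29264843) the fold was 2.18 in TGFβ replicate 1, lower than the 3.25 and 2.58 of the batch 1 vehicle libraries. The summits of pair 1 lay 416 bp apart there, so these folds may belong to different peaks. At Cdkn1a, TGFβ folds were thus higher in both batch 1 pairs at sites 3 and 10, and in pair 2 at sites 8 and 9. They were lower in pair 2 at site 6 and in pair 1 at site 2. In pair 1, site 8 (8.75 against 8.74) and site 6 (2.72 against 2.74) were nearly equal. Of the remaining 10 Cdkn1a sites, 3 were called in 2 lists and 7 in 1 list, with highest folds from 1.92 to 3.42.

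In the Cdkn2b window the sites lay between 89187261 and 89271951 of chromosome 4, and site 15, from 89269790 to 89271951, had the highest fold in the batch 1 TGFβ lists. The batch 1 TGFβ libraries reached folds of 9.24 and 10.3 there, and vehicle replicate 1 had 3.25. Vehicle replicate 2 and both batch 2 libraries did not call it, and in the batch 1 vehicle lists site 9 was the highest. In fragments, the summit held 113 and 117 under TGFβ and 37 in vehicle replicate 1, over a background of 10.4 to 11.3. Rows covered 1482 and 2162 bp under TGFβ and 593 bp under vehicle, and the summits of the 3 calls lay within 132 bp. The site was in the 94.1 and 93.1 percentile of the TGFβ lists and the 52.1 percentile of the vehicle list.

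Site 9, from 89226593 to 89229829, was called in all batch 1 libraries. The batch 1 folds there were 5.92 and 7.54 under TGFβ and 3.51 and 4.77 under vehicle. Width set the treatments further apart than height. The covered stretch was 2540 and 3148 bp under TGFβ against 704 and 1025 bp under vehicle, although the 4 summits lay within 199 bp. Site 5, from 89212412 to 89214845, was the one site of the window with a call in batch 2. Its folds were 3.73, 5.96 and 2.86 under TGFβ and 2.74 and 4.2 in the batch 1 vehicle libraries, with no call in vehicle replicate 3. The summit of TGFβ replicate 3 stood apart, since the batch 1 summits lay within 206 bp and the range with it was 847 bp. Site 6, from 89219963 to 89221001, had folds of 6.0 and 6.05 under TGFβ in batch 1 and 2.26 in vehicle replicate 2, near the lowest fold called in that list.

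A further 5 Cdkn2b sites had calls in both batch 1 TGFβ lists and in none of the other lists. The highest folds were at site 13 (89250844 to 89251997), with 4.38 and 5.0 under TGFβ, and summits 25 bp apart. Site 10 (89237122 to 89237535) followed at 2.68 and 4.38. Site 14 had 2.39 and 3.51, site 3 had 2.19 and 2.89, and site 4 had 2.51 and 2.10. In these lists several of the values lie close to the lowest fold that was called, and in lists of equal length site 13 was the one of the 5 that was still called, in both TGFβ lists and no vehicle list. Sites 1, 2, 7, 8, 11 and 12 were called in TGFβ replicate 2 alone, the longest list, with folds from 2.02 to 2.54. Rows with a fold of at least 5 numbered 3, 4 and 0 under TGFβ and 0 in each vehicle library. Such folds make up 21.9%, 27.5% and 4.77% of the whole TGFβ lists and 13.3%, 16.6% and 1.97% of the whole vehicle lists.

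At Myc the called sites lay between 61854808 and 61915821 of chromosome 15, and no peak was called in the part of the window before them. Site 1, from 61854808 to 61860200, was the broadest of the 40 sites and was called in all lists. Folds at its strongest summit were 7.62, 10.9 and 3.42 under TGFβ and 4.69, 4.66 and 3.28 under vehicle. The TGFβ value was the higher in all 3 pairs, with a small step in batch 2. In fragments the summits held 93, 123 and 59 under TGFβ and 54, 61 and 49 under vehicle.

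The rows of site 1 differed in form between libraries. In TGFβ replicates 1 and 2 it was a single row of 5303 and 5393 bp. Vehicle replicates 1 and 2 each had 4 separate rows over the same stretch, 4201 and 4283 bp long together. The strongest summits of the 4 batch 1 libraries nevertheless lay within 35 bp of each other, near the low end of the stretch. In vehicle replicate 1 the other summits lay 823, 1607 and 3413 bp further on, with folds of 2.40, 3.60 and 3.62. Those of vehicle replicate 2 were at 797, 1570 and 3386 bp, with folds of 3.39, 4.36 and 3.50. The 4 summits of the vehicle libraries thus recurred within 37 bp, and the long TGFβ rows report 1 summit each.

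Batch 2 gave another position. TGFβ replicate 3 had rows of 558 and 906 bp with summits 3415 and 4644 bp past the TGFβ replicate 1 summit, and vehicle replicate 3 had 1 row of 755 bp with its summit 4696 bp past it. The first of these lay within 29 bp of the fourth vehicle summits of batch 1. The stretch was therefore called in both batches, but the strongest summit was at its low end in batch 1 and at its high end in batch 2. The local background at these batch 2 summits was 14.2 to 16.6 fragments, against 10.4 to 12.3 at the strongest batch 1 summits, and its part in the position was not tested.

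**Figure D4:**
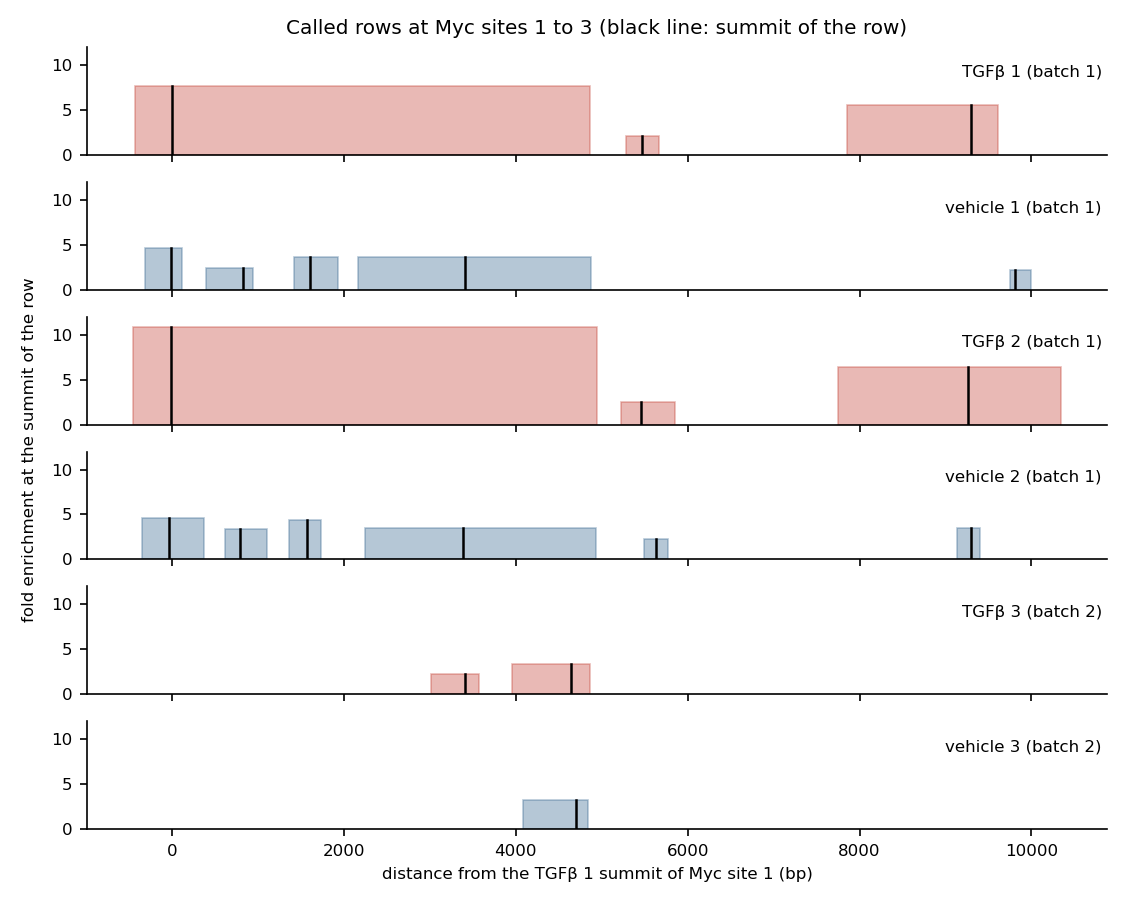
Called rows at Myc sites 1 to 3 in the 6 libraries, with width along the distance in bp from the TGFβ replicate 1 summit of site 1, height for the fold enrichment at the row's summit, and a black line at each summit. Both batch 1 TGFβ libraries show 1 row of 5303 and 5393 bp where the batch 1 vehicle libraries show 4 rows.

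Site 3 (61863012 to 61865597) had the next highest fold of the Myc window in the batch 1 TGFβ lists. In batch 1 its fold was 5.59 and 6.40 under TGFβ and 2.23 and 3.47 under vehicle, and no batch 2 library called it. The TGFβ rows were 1753 and 2586 bp wide and the vehicle rows 246 and 268 bp, with summits at 61864556 and 61864520 under TGFβ and at 61865065 and 61864557 under vehicle. The vehicle replicate 1 row did not overlap the TGFβ replicate 1 row, its summit lay 509 bp away, and both joined the site through the longer row of TGFβ replicate 2, so the pair 1 folds belong to different peaks. Site 4 (61870589 to 61871653) had folds of 2.84 and 3.71 under TGFβ and 2.28 in vehicle replicate 1. Where rows of a batch 1 pair overlapped, the TGFβ fold was the higher at site 1 in both pairs, at site 3 in pair 2 and at site 4 in pair 1. The summits of pair 1 at site 4 lay 411 bp apart.

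Site 8 (61909208 to 61911455), whose summit in TGFβ replicate 1 was 54.5 kb from that of site 1, was called in all 6 lists with the closest summits, from 61909748 to 61909833. Folds were 3.28, 4.42 and 3.20 under TGFβ and 3.32, 2.81 and 2.5 under vehicle, so the TGFβ value was higher in pairs 2 and 3 and not in pair 1. Rows were 1835, 1916 and 399 bp long under TGFβ and 390, 896 and 323 bp under vehicle. Sites 2 and 9 were called in both batch 1 TGFβ lists and in vehicle replicate 2, with folds of 2.11, 2.45 and 2.24 at site 2 and 3.0, 2.98 and 2.42 at site 9. Sites 5, 6 and 7 were called in TGFβ replicate 2 alone, with folds of 2.34, 2.63 and 3.63.

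Height and width can be read together over the sites that both libraries of a pair called. Over all merged regions that a pair shared, the TGFβ fold was the higher at 87.1%, 91.4% and 70.9% in pairs 1, 2 and 3, and the TGFβ rows the longer at 88.3%, 89.9% and 64.9%. In pair 1 the folds of Cdkn1a sites 6 and 8 were nearly equal, and they are counted as they stand. At Cdkn1a the TGFβ fold was the higher at 3 of 5 shared sites in pair 1, 4 of 5 in pair 2 and 2 of 3 in pair 3. At Cdkn2b it was higher at 3 of 3 in both batch 1 pairs, with no shared site in pair 3. At Myc it was higher at 3 of 4, 5 of 5 and 2 of 2, where site 3 in pair 1 is the one shared site of the 3 windows without overlapping rows. With so few shared sites and such high shares among all regions, nothing particular to the 3 genes is read from these counts. TGFβ rows were also the longer ones at 4 of 5, 4 of 5 and 3 of 3 shared sites at Cdkn1a and at all shared sites of each pair at Cdkn2b and Myc. Rows were longer in the TGFβ lists as a whole too, with median widths of 620, 735 and 343 bp against 523, 597 and 319 bp in the vehicle lists, and median folds were 3.20, 3.33 and 2.60 against 3.08, 3.15 and 2.42. The part of either in the site values was not tested.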

How the data were processed

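Each of the 6 RUNX1 ChIP libraries has its own deposited narrowPeak list, not pooled. The submitters' processing notes name DRAGEN, Trimmomatic, Bowtie2 2.5.2 and MACS2 and the build GRCm39 (mm39), without roles, settings or control library. The deposited fold enrichment is a ratio at the summit over the local background, and the authors also gave −log10 p, −log10 q and a score for each peak. The lowest −log10 q lies just above 1, so a q-value of 0.1 was taken as the threshold. Read totals are not given in the sources used here, so the depth is unknown and no count model was fitted. Summit fragments were recovered from fold and p (pseudocount 1), and a whole number matched within 0.001 for 99.986% to 99.995% of rows below a −log10 p of 300.

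Rows with a summit in a window were merged where they overlapped by at least 1 bp. Window values were compared by two-sided exact permutation over 20 labelings (Python 3.11.15, scipy 1.17.1) and pattern counts set beside all merged regions. Density over the chromosomes used the highest end position per chromosome in the lists, 2718 Mb in all. The members, lists and tests were chosen with earlier results of these data known. Described in full were sites called in at least 3 lists. Libraries were paired by batch and title wording: deviations from the group means over the 64286 regions correlated at r = 0.135, 0.225 and 0.418 in pairs 1, 2 and 3, while the swapped combinations of batch 1 gave 0.243 and 0.179, so the values support the batches and not the numbering within batch 1. Code was tested on simulated data. A list of other cell cycle genes, their likeness to the members and motifs at summits need positions or sequence in GRCm39 and were not analysed here. The TGTGG core and shared run were searched after the sequences had been seen.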

Additional observations from a re-analysis of the deposited data

How the results depend on the processing

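Covered length at Cdkn1a, Cdkn2b and Myc and peak number at Cdkn2b kept a positive TGFβ minus vehicle difference under all 13 alternatives run. Among these, the replicate block repeats the main difference by construction. The settings that use batch 1 alone, average it or leave out 1 library reuse the same window values. No setting adjusts covered length for the longer rows of the TGFβ lists. Leaving out 1 library gave 737 to 5984 bp, 3174 to 10176 bp and 2124 to 7988 bp for covered length at the 3 genes, and 1 to 5 peaks at Cdkn1a, 4.5 to 11.5 at Cdkn2b and -1.17 to 2.33 at Myc. Peak number reversed in lists of equal length at Cdkn1a (-1.33) and Myc (-2.33), and at Myc (-0.333) with windows shortened by 20 kb at both ends; the cause was not tested. With the replicate block the differences were 2.67, 7.33 and 0.667 peaks at Cdkn1a, Cdkn2b and Myc (exact sign-flip p = 0.25, 0.25 and 0.75, where 0.25 is the lowest possible), and the pairing changed no call. No setting can bring p under 0.05.

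Site counts depended on the setting. Of 40 sites, 5 were in all lists (6.36% of all regions), 7 in the batch 1 TGFβ lists only (16%) and 16 in 1 list (50%). A −log10 q of at least 5 left 24 sites, 1 in all lists (7.27% of all regions under that setting), 7 in the batch 1 TGFβ lists (24.1%) and 8 in 1 list (29.9%). These 7 were not the same sites as before. Cdkn1a site 5 and Cdkn2b site 13 stayed. The others, Cdkn1a sites 3 and 9, Cdkn2b site 6 and Myc sites 4 and 9, had batch 1 vehicle calls at a lower −log10 q. Equal length left 17, with 3 (10.2%), 3 (7.52%) and 4 (44%), so the share of sites in all lists did not fall. Of the 3 in the batch 1 TGFβ lists, Cdkn1a site 9 and Cdkn2b site 6 had a vehicle replicate 2 call that the cut removed. A fold of at least 5 left 8, with 0 in all lists (1.78%), 6 in the batch 1 TGFβ lists (34.2%) and 1 in 1 list (34.8%). Those 6 also had vehicle calls at lower folds. Shorter windows left 24, with 2 in all lists and 4 in the batch 1 TGFβ lists, against 6.36% and 16% of all regions. Summit windows of 200 bp gave 57 sites, 1 in all lists (2.91%) and 27 in 1 list (60.5%), and leaving out rows over 2000 bp, chosen after the data were seen, 47 sites, 2 in all lists (3.13%). Leaving out 1 library gave 5 to 6 sites in all lists (6.5% to 11.4% of all regions) and 7 to 21 in the batch 1 TGFβ lists (17.1% to 38.8%). It gave 0 to 7 in every TGFβ and no vehicle list (0.706% to 17.6%) and 15 to 23 in 1 list (49.1% to 63.7%). With a batch 1 library left out, the batch 1 pattern rests on fewer lists. Without read counts, a missing call sets only an upper limit near the list's threshold.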
